A study of Homo sapiens with 2 samples.

Results

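The genes of cholesterol synthesis, and those that control sterol supply through SREBP2, were examined in hNCI-H716 cells grown in low or high glucose. The list held 32 genes of sterol synthesis, uptake and regulation, matched to the deposited table by symbol alone. Of these, 31 were found among its 19989 genes. ERG28, a scaffold for sterol demethylation, has a value there under its older symbol, C14orf1, and was kept apart from the 31. The hNCI-H716 line comes from a human adenocarcinoma of the cecum and serves as a model of the L-cell, the gut endocrine cell that secretes glucagon-like peptide. After attachment to Matrigel, the cells were kept for 48 h in DMEM with 10% fetal bovine serum and antibiotics, with glucose at either 5.5 mM (low) or 25 mM (high). Polyadenylated RNA was sequenced in 1 library for each glucose concentration. The low glucose library held 21757834 estimated counts and the high glucose library 19456588.

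Cholesterol is built from acetyl-CoA through mevalonate, which is turned into isoprenoid units that are joined to squalene. Squalene is then closed into a ring and trimmed, step by step, to cholesterol. When sterol in the endoplasmic reticulum is low, SCAP carries the transcription factor SREBP2 to the Golgi, where it is cut and released to raise the genes of synthesis and uptake, and when sterol is high the INSIG proteins hold SCAP back, while oxysterols activate the LXR receptors, which raise the genes of sterol efflux.

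Levels are given as CPM, counts relative to the library total, after scaling by the trimmed mean of M-values (TMM), with 95% Wilson intervals. Each difference is the log2 ratio of CPM in high over low glucose, with a 95% exact binomial interval. These intervals cover counting error alone, and since each concentration has 1 library, no difference has a replicate check and none has a p-value. The limit that a count of 0 allows was 0.138 CPM (low glucose) and 0.154 CPM (high glucose), far below every one of the 31 genes. In bulk RNA, fewer expressing cells and less RNA per cell cannot be told apart.

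The labelled cell type was checked against marker genes. Of 10 enteroendocrine markers, 8 had a value, and they summed to 4675 CPM in low and 4464 CPM in high glucose. The most abundant was GCG, the proglucagon gene, at 1954 CPM in low and 1808 CPM in high glucose, while PYY and NEUROD1 had no value in the table used here. Of the 8, 3 had a log2 ratio of high over low glucose above 0 and 5 below 0, with a median of -0.08. Among all 13052 genes averaging at least 1 CPM, 48.6% were above 0, and for 8 genes the count is near that share. The interval lay below 0 for 4 of the 8, against 16.0% of all 13052 genes averaging at least 1 CPM, and above 0 for 1, against 15.8%. All 8 epithelial markers had a value, and they summed to 554 CPM in low and 617 CPM in high glucose. Their levels were uneven, with the keratin gene KRT8 at 270.0 CPM in low and 291 CPM in high glucose, against 3.37 and 3.50 CPM for the adhesion gene EPCAM. The cadherin gene CDH1, which defines most epithelia, was at 0.0582 CPM in low and 0.166 CPM in high glucose, at or near the limit that a count of 0 allows. Of the 7 epithelial markers that averaged at least 1 CPM, 5 had a log2 ratio of high over low glucose above 0, with a median of 0.11, and 2 were higher by 1.2 fold, against 48.6% and 6.43% of those 13052 genes. These were VIL1, which encodes a microvillus protein, from 11.7 CPM in low to 17.8 CPM in high glucose, a log2 ratio of 0.61 (0.37 to 0.85), and CDX2, an intestinal transcription factor gene, from 30.5 to 38.2 CPM, a log2 ratio of 0.33 (0.17 to 0.48). KRT19 was lower by 1.2 fold at a mean of 1.24 CPM, with an interval that included 0. Over the 5 epithelial markers averaging at least 10 CPM, the median log2 ratio was 0.22. These markers moved between the same libraries as the sterol genes, and their part in the ratios of the sterol genes was not tested. Among markers of other cell types, the collagen gene COL3A1 was abundant (815 and 742 CPM in low and high glucose). So were the lysozyme gene LYZ (441 and 413 CPM) and the fibroblast marker LUM (177 and 181 CPM). COL1A2 was at 3.74 and 4.94 CPM, a log2 ratio of 0.40 with an interval that included 0. COL1A1 had 0.0582 and 0.115 CPM, and all 4 endothelial markers with a value had a mean under 1 CPM.

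All 31 genes averaged at least 1 CPM, the filter used for comparison with other genes. Their median log2 ratio was 0.08, and 0.06 without SQLE, against a median of -0.01 over the 13052 genes that passed the same filter. A log2 ratio above 0 was found for 21 of the 31 genes (67.7%), against 48.6% of all genes tested. The difference reached 1.2 fold in the higher direction for 4 of 31 genes (12.9%), against 6.43% of all genes tested, and in the lower direction for 3 of 31 (9.68%), against 11.3%. The genes higher by 1.2 fold were SQLE, MSMO1, DHCR7 and NPC1, and those lower were INSIG2, ABCA1 and PMVK. With the trend of GC content and transcript length removed, PMVK no longer reached 1.2 fold (log2 ratio -0.20), which left 2 genes lower. Without SQLE, 3 of 30 genes were higher and 3 of 30 were lower by 1.2 fold. At a threshold of 1.1 fold, 10 of 31 genes were higher, against 18.9% of all genes tested, and 5 of 31 were lower, against 24.6%. In the lower direction at 1.2 fold the share was near that of all genes.

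The counting interval lay above 0 for 13 of 31 genes, against 15.8% of all genes tested, and below 0 for 5 of 31, against 16.0%. Genes with few reads have wide ratios, so the counts were repeated over genes averaging at least 10 CPM, which kept 29 members and 9345 genes in all. There, 21 of 29 members had a log2 ratio above 0, against 51.9% of all such genes. The difference was higher by 1.2 fold for 4 of 29, against 3.20%, and lower for 2 of 29, against 4.82%. The interval lay above 0 for 13 of 29 members, against 20.4% of such genes, and below 0 for 4 of 29, against 18.0%.

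The ratios were then read by role. Of the 19 enzymes of sterol synthesis, 17 had a log2 ratio above 0, against 48.6% of all genes tested (51.9% of those averaging at least 10 CPM, as all the enzymes did). Their median was 0.10, also without SQLE, against -0.01 over all genes tested. With the trend of GC content and length removed, 18 of 19 were above 0, and the median was 0.15, or 0.13 without SQLE. Under that setting, which could use 11610 genes, 54.3% of those genes were above 0, with a median of 0.02. Of the 12 members that act in control, transfer, efflux or storage, 4 had a log2 ratio above 0, with a median of -0.03, but this side depended on the processing. It was 5 of 12 under library totals or median-of-ratios scaling, and 8 of 12, with a median of 0.03, once the trend with GC content and transcript length was removed, near the median of all genes under that setting.

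**Figure D1:**
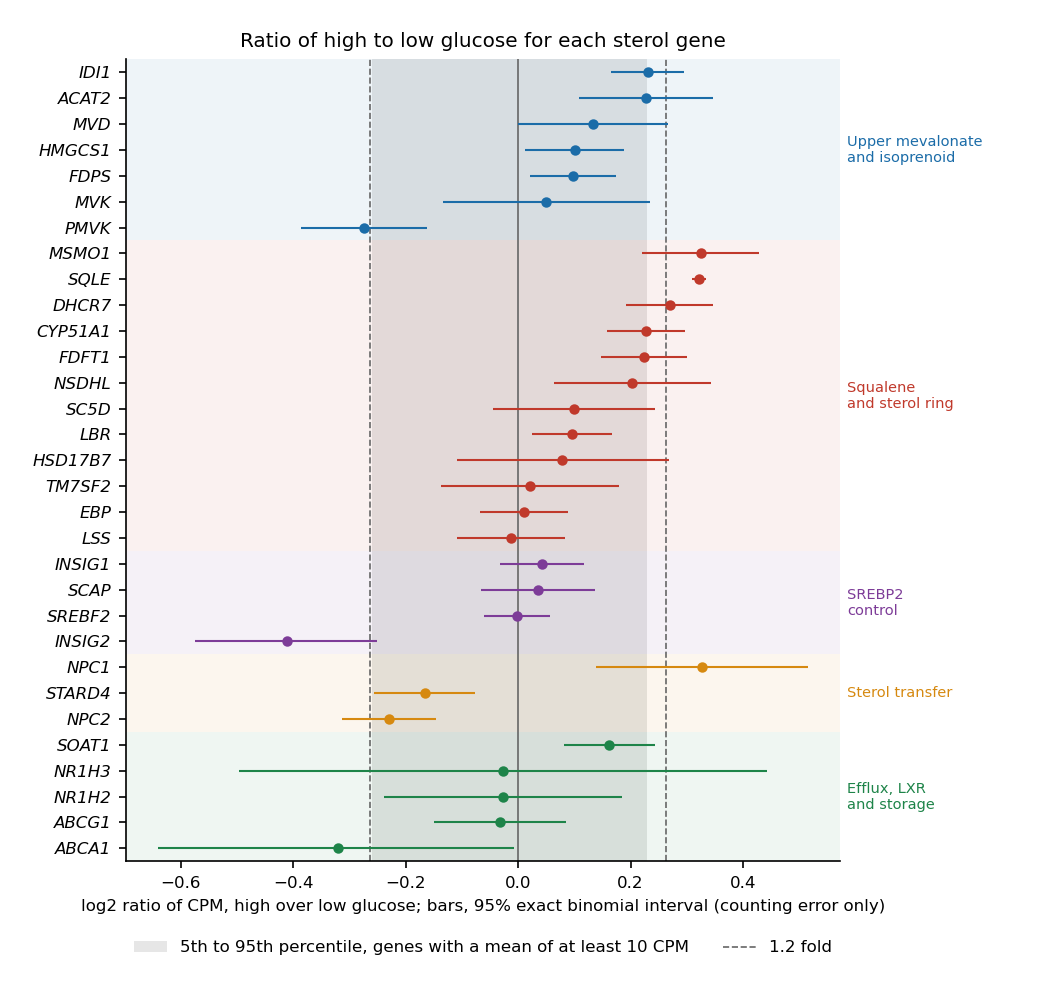
Log2 ratio of CPM in high over low glucose (horizontal axis) for the 31 sterol genes, grouped by role, with 95% exact binomial intervals as bars; dashed lines mark 1.2 fold and the grey band spans the 5th to 95th percentile of genes averaging at least 10 CPM (-0.26 to 0.23). Most enzymes lie to the right of 0, except LSS at -0.01 and PMVK at -0.27 (0.03 and -0.20 with the trend of GC content and length removed), and INSIG2 has the lowest ratio at -0.41.

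**Figure D2:**
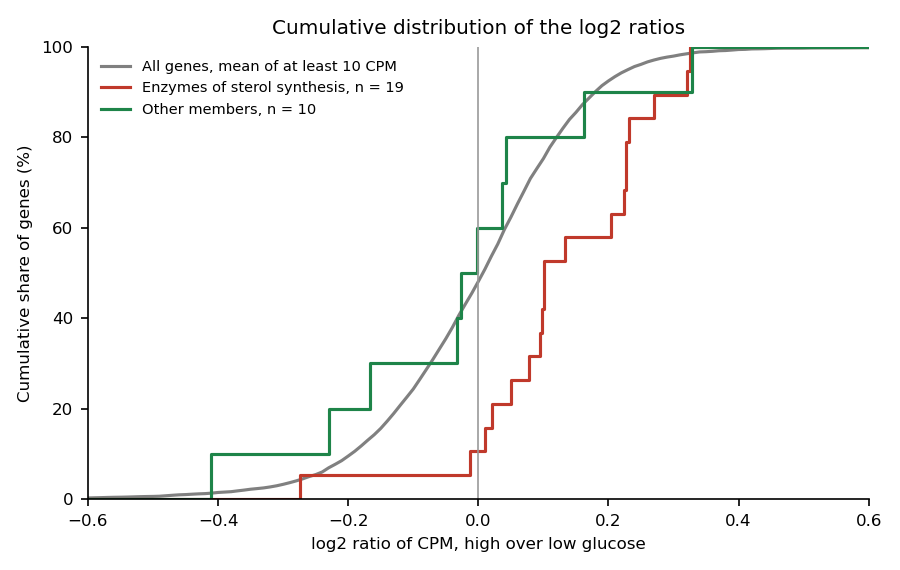
Cumulative share of genes (vertical axis, %) by log2 ratio of high over low glucose (horizontal axis) for all 9345 genes averaging at least 10 CPM, the 19 enzymes of sterol synthesis and the 10 other members with such a mean. The curve of the enzymes lies to the right of that of all genes over most of its range, while that of the other members crosses it.

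Promoters of the members were read because SREBP2 is known to bind sterol regulatory elements beside NF-Y, which binds CCAAT, and Sp1, which binds GC boxes. The RefSeq promoter windows used (GRCh38.p14) run from 250 bases before to 50 bases after each gene's start. Of the 32 listed genes, 28 were matched, with 38 windows in all, and ABCG1, ACAT2, FDFT1 and SQLE were not among them. Windows of 1 gene can overlap, as they did for 6 genes, so that a match can count in both windows, and counts are therefore also given by gene. Motifs were searched on both strands. CCAAT was found in 22 of the 38 windows (57.9%), against 34.6% of all 35116 windows and 34.7% of the 22199 windows of protein-coding genes. By gene, it was found for 20 of 28 (71.4%), against 39.7% of all 27305 genes with a window and 42.1% of the protein-coding ones. The GC box GGGCGG was found in 33 of 38 windows (86.8%), against 45.0% of all windows and 56.3% of those of protein-coding genes, and for 26 of 28 genes (92.9%), against 64.3% of protein-coding genes. For the sterol regulatory element, only the exact letters TCACNCCAC were searched, so an element with other letters was not counted. TCACNCCAC was found in 1 window, that of SREBF2, against 1.13% of all windows. Its shorter core CACNCCAC, which every match of the longer form also holds, was found in 6 of 38 windows (15.8%), belonging to ABCA1, IDI1, INSIG1, SC5D and SREBF2, against 5.87% of all windows and 6.17% of those of protein-coding genes. These were 5 of 28 genes (17.9%), against 7.05% of all genes and 7.98% of protein-coding genes. The E-box CACGTG was found in 6 of 38 windows (15.8%), against 7.26% of all windows and 8.34% of those of protein-coding genes, and for 5 of 28 genes (17.9%), against 8.77% of all genes and 10.9% of protein-coding genes. The windows and genes compared against were not limited to expressed genes, so these shares are not matched for expression. These matches describe letters in the windows and are not measured binding.

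The stretches below come from 2 enzymes that were higher by 1.2 fold, MSMO1 and DHCR7, and from the 3 control genes SREBF2, INSIG1 and INSIG2. Each ends before the first coding-gene exon annotated within its window and is written 5′ to 3′ on the gene's strand, with matches to TCACNCCAC or CCAAT, in either orientation, in capitals (ATTGG is CCAAT read on the other strand). They lie at chr4:165327473-165327622 (plus strand) for MSMO1, chr11:71448436-71448585 (minus strand) for DHCR7, chr22:41832929-41833078 (plus strand) for SREBF2, chr7:155297628-155297775 (plus strand) for INSIG1 and chr2:118088302-118088451 (plus strand) for INSIG2.
MSMO1: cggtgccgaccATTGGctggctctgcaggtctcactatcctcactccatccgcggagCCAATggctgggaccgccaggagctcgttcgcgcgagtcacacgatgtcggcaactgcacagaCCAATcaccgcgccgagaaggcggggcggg
DHCR7: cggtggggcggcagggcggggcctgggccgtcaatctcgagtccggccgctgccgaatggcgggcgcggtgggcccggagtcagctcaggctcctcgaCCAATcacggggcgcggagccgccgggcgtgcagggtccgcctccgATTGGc
SREBF2: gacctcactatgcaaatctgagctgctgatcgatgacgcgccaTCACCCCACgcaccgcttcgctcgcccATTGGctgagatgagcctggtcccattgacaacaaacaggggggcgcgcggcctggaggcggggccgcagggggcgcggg
INSIG1: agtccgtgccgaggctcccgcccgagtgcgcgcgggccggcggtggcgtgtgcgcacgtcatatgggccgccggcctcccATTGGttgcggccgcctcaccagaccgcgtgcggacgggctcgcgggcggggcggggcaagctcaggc
INSIG2: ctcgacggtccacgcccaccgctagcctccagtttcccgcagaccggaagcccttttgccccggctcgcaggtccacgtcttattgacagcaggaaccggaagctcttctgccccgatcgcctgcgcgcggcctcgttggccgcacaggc
The DHCR7 stretch lies between annotated exons of that gene, whose first exon is further upstream. The MSMO1 stretch holds 3 CCAAT matches and the DHCR7 stretch 2. The SREBF2 stretch holds 1 match to TCACNCCAC, 133 bases before the gene's start, followed by 1 CCAAT match in the reverse orientation. The INSIG1 stretch holds 1 CCAAT match, and the INSIG2 stretch has 0 capitals. Of the genes past 1.2 fold with a window, CCAAT was found for MSMO1 and DHCR7 and not for NPC1, INSIG2, ABCA1 or PMVK. It was also found for genes with a log2 ratio below 0, such as STARD4 and NPC2. A relation of these matches to the ratios was not tested.

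The upper mevalonate enzymes build the isoprenoid precursors. Of these 7 genes, 6 had a log2 ratio above 0, and the median was 0.10, or 0.15 with the trend of GC content and length removed. The interval lay above 0 for ACAT2, HMGCS1, IDI1 and FDPS, below 0 for PMVK, and included 0 for MVK and MVD, where 51.9% of all genes averaging at least 10 CPM were above 0, and 20.4% and 18.0% had the interval above and below 0. The highest ratio as processed here was that of IDI1, which interconverts the isoprenoid building blocks, but with the trend of GC content and length removed IDI1 (0.22) was below ACAT2 (0.25). IDI1 was at 169.7 CPM (164 to 175) in low glucose and 199 CPM (193 to 205) in high glucose, a log2 ratio of 0.23 (0.17 to 0.30). These intervals of level did not overlap, yet the difference stayed under 1.2 fold. ACAT2, the cytosolic thiolase that joins acetyl-CoA units, had a similar ratio of 0.23 (0.11 to 0.35). Its exons overlap those of SOD2 over 1141 bases and of TCP1 over 397 bases, both on the opposite strand, and the reads of such pairs cannot be told apart without strand. SOD2 and TCP1 had log2 ratios of 0.12 and 0.14. Reads of FDPS, which makes farnesyl diphosphate, may be shared with 8 named pseudogenes. Exons are also shared with an expressed gene on the opposite strand for MVK (with MMAB), FDPS (with RUSC1-AS1) and NR1H3 (with ACP2), and with VPS51 on the same strand for TM7SF2.

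PMVK, which adds the later phosphate to mevalonate, ran against the other enzymes of this stretch of the pathway. It was at 69.9 CPM (66.4 to 73.5) in low glucose and 57.8 CPM (54.5 to 61.3) in high glucose. That is a log2 ratio of -0.27 (-0.39 to -0.16), or 1.21 fold lower in high glucose, and with the trend of GC content and length removed it was -0.20 and within 1.2 fold. The neighbouring steps did not share this direction: the log2 ratio was 0.05 (-0.13 to 0.23) for MVK, the kinase before it, and 0.13 (-0.00 to 0.27) for MVD, the decarboxylase after it.

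The enzymes that make squalene and shape the sterol ring had a median log2 ratio of 0.15 over 12 genes, and of 0.16 with the trend of GC content and length removed, close to the 0.15 of the upper mevalonate enzymes under that setting. A log2 ratio above 0 was found for 11 of 12, and for 12 of 12 with the trend of GC content and length removed. The interval lay above 0 for 7 genes, SQLE, MSMO1, DHCR7, CYP51A1, FDFT1, NSDHL and LBR, and included 0 for the other 5. Over all genes averaging at least 10 CPM, as these 12 did, 51.9% were above 0 and 20.4% had the interval above 0. MSMO1, an oxidase in the removal of methyl groups from the ring, was at 65.7 CPM (62.4 to 69.2) in low glucose and 82.3 CPM (78.3 to 86.4) in high glucose, with a log2 ratio of 0.32 (0.22 to 0.43). DHCR7, which carries out a last reduction on the way to cholesterol, was at 118 CPM (114 to 123) in low glucose and 143 CPM (137 to 148) in high glucose, with a log2 ratio of 0.27 (0.19 to 0.35). For both genes the intervals of the 2 libraries were apart. The lowest ratio belonged to LSS, the cyclase that closes the ring, at 86.0 CPM in low and 85.3 CPM in high glucose, a log2 ratio of -0.01 (-0.11 to 0.08) that turned to 0.03 with the trend of GC content and length removed. The ratios of the enzymes in this group within 1.2 fold ranged from that of LSS to 0.23 for CYP51A1, the lanosterol demethylase. CYP51A1 has 3 named pseudogenes and HSD17B7, a ketoreductase of demethylation, has 2. TM7SF2 and LBR encode reductases of the same double bond, and their log2 ratios were 0.02 (-0.14 to 0.18) and 0.10 (0.02 to 0.17).

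**Figure D3:**
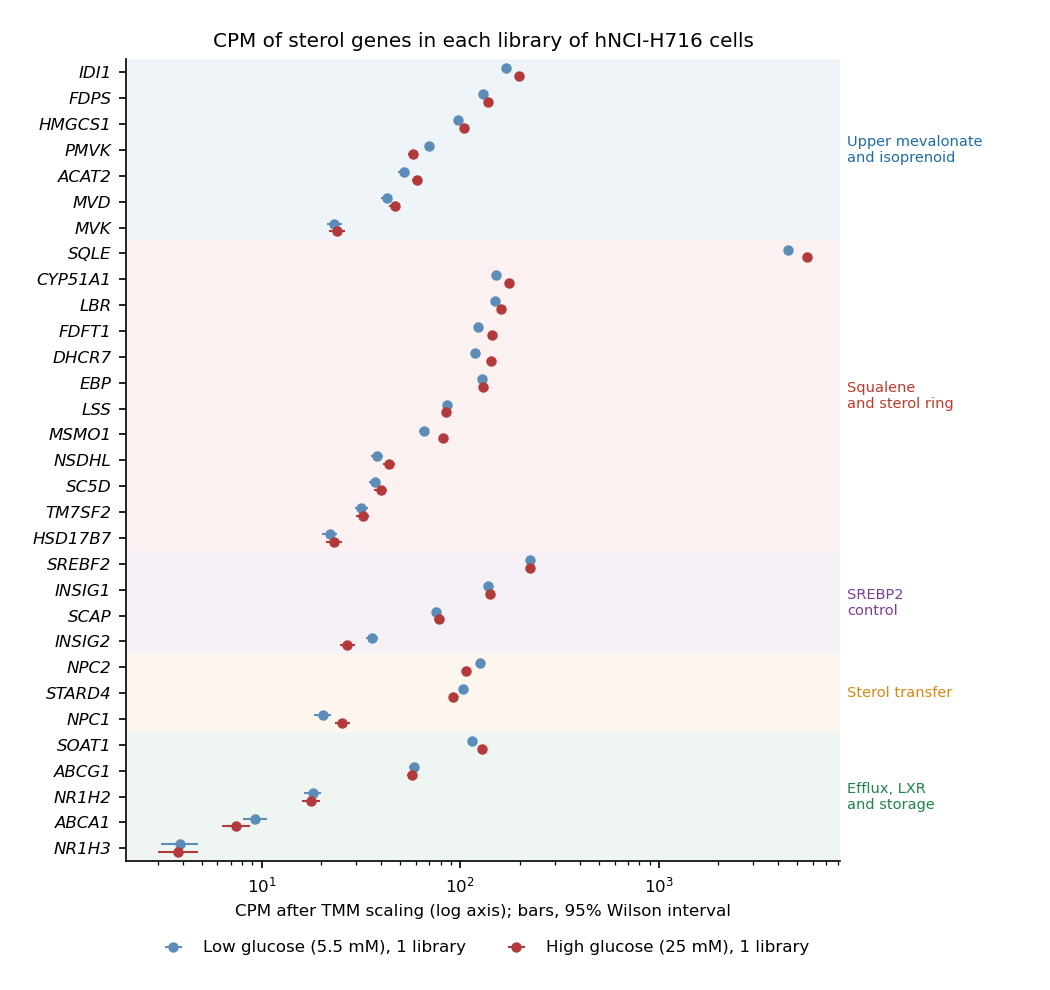
CPM after TMM scaling (horizontal log axis) of the 31 sterol genes in the low glucose (5.5 mM) and high glucose (25 mM) libraries, with 95% Wilson intervals as bars. SQLE lies apart from the rest in both libraries, and the points of the other genes lie between 3.81 and 226 CPM.

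SQLE, the squalene epoxidase and a rate-limiting step of the pathway, lies at chr8:124998497-125022283 (GRCh38, plus strand) in a segment of very high expression. It was at 4474 CPM (4446 to 4502) in low glucose and 5591 CPM (5558 to 5624) in high glucose. The log2 ratio was 0.32 (0.31 to 0.33), the narrowest interval among the members. SQLE alone made up 64.4% (64.2% to 64.7%) of the members' summed CPM in low glucose and 68.2% (68.0% to 68.4%) in high glucose. The sum over all 31 genes was 6942 CPM in low and 8196 CPM in high glucose, a log2 ratio of 0.24 (0.23 to 0.25). Without SQLE it was 2468 and 2606 CPM, a log2 ratio of 0.08 (0.06 to 0.10). The sum of the members thus rested mostly on this gene, and both the sum and its ratio are given with and without it.

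The genes beside SQLE had ratios on both sides of 0. Of the 4 nearest expressed protein-coding genes on each side, 3 of 8 had a log2 ratio above 0 and 0 of 8 were higher by 1.2 fold, with a median of -0.10, where 51.9% of all genes averaging at least 10 CPM were above 0 and 3.20% were higher by 1.2 fold. With 8 genes, such counts are near those shares. Mean levels of the 8 were uneven, from 74.8 CPM for ZNF572 to 7184 CPM for NDUFB9. The immediate neighbours were ZNF572, a zinc finger gene, at -0.21 (-0.31 to -0.10), and WASHC5, which encodes a subunit of an endosomal actin-regulating complex, at -0.06 (-0.08 to -0.05). WASHC5 had almost the same mean level as SQLE, 5024 against 5032 CPM, but per kb of transcript it was lower, at 1199.9 against 1699.6 CPM per kb. The highest ratio among the 8 was 0.24 (0.22 to 0.26) for FAM84B. SQLE therefore had a higher ratio than each of the 8 genes around it.

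**Figure D4:**
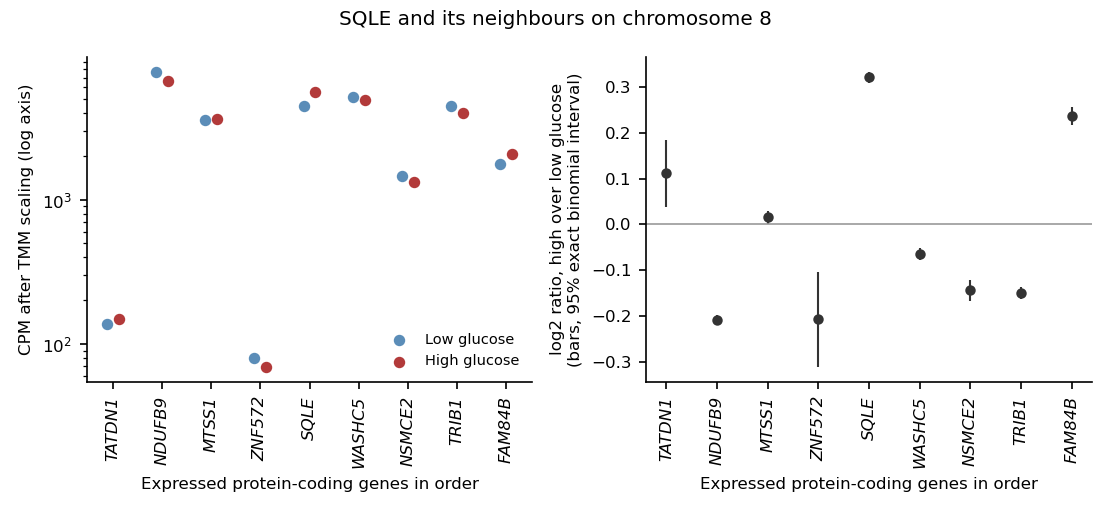
CPM (left, log axis) in the low and high glucose libraries and log2 ratio of high over low glucose (right, with 95% exact binomial intervals) for SQLE and the 4 nearest expressed protein-coding genes on each side, in order along chromosome 8. SQLE has the highest ratio, 0.32, while NDUFB9 and ZNF572 both have a ratio of -0.21.

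The genes that control SREBP2 showed little difference, apart from INSIG2. SREBF2, which encodes SREBP2 itself, was at 226 CPM (220.0 to 233) in low glucose and 226 CPM (219 to 233) in high glucose. Its log2 ratio, just under 0 (interval -0.06 to 0.06), changed sign, reaching at most 0.04, under library totals, median-of-ratios scaling and removal of the GC and length trend. SCAP, the sterol-sensing escort of SREBP2, was at 76.0 CPM (72.4 to 79.8) in low glucose and 77.9 CPM (74.1 to 81.9) in high glucose, with a log2 ratio of 0.04 (-0.07 to 0.14). INSIG1, which retains SCAP in the endoplasmic reticulum and is itself an SREBP2 target, was at 138 CPM (133 to 143) in low glucose and 142 CPM (137 to 147) in high glucose, with a log2 ratio of 0.04 (-0.03 to 0.12). For each of these 3 genes the ranges of the libraries overlapped.

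INSIG2, the other retention protein of SCAP, stood apart. It was at 35.9 CPM (33.5 to 38.5) in low glucose and 27.0 CPM (24.8 to 29.4) in high glucose. The log2 ratio of -0.41 (-0.57 to -0.25), or 1.33 fold lower in high glucose, was the lowest of the 31 genes. Its interval did not overlap that of INSIG1, which was at nearly the same level in both libraries. Per kb of transcript, INSIG1 had a mean of 46.5 CPM per kb and INSIG2 a mean of 12.1 CPM per kb.

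The sterol transfer genes were mixed, with 1 of 3 above 0, against 51.9% of all genes averaging at least 10 CPM. With 3 genes, this count is near that share. NPC1, the membrane protein that exports cholesterol from the lysosome, was at 20.3 CPM (18.5 to 22.3) in low glucose and 25.5 CPM (23.3 to 27.8) in high glucose. Its log2 ratio was 0.33 (0.14 to 0.51), an interval that held the ratios of MSMO1 and SQLE, so the order of these 3 genes cannot be read. NPC2, the soluble lysosomal protein that hands cholesterol to NPC1, went the other way, at 125 CPM (121 to 130.2) in low glucose and 107 CPM (102 to 112) in high glucose, a log2 ratio of -0.23 (-0.31 to -0.15). The exons of NPC2 overlap those of ISCA2 over 103 bases on the opposite strand. ISCA2 was at 31.1 CPM in low and 25.8 CPM in high glucose, a log2 ratio of -0.27. The part of this overlap in the ratio of NPC2 was not tested. STARD4, a cytosolic sterol carrier, had a log2 ratio of -0.17 (-0.26 to -0.08). The partners NPC1 and NPC2 therefore had intervals on opposite sides of 0.

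Of the 5 genes of efflux, LXR signalling and storage, 1 had a log2 ratio above 0, against 48.6% of all genes tested. With the trend of GC content and length removed, 4 of 5 did, against 54.3% of all genes. Under that setting the median of the 5 genes, 0.02, was about that of all genes. SOAT1, which esterifies cholesterol for storage, had the highest ratio of this group, at 115 CPM (110.3 to 119) in low glucose and 128 CPM (123 to 133) in high glucose, a log2 ratio of 0.16 (0.08 to 0.24). ABCA1, the transporter that loads cholesterol onto apolipoproteins and a classic LXR target, had the lowest, at 9.31 CPM (8.10 to 10.7) in low glucose and 7.45 CPM (6.32 to 8.75) in high glucose. Its log2 ratio of -0.32 (-0.64 to -0.01) passed 1.2 fold, but the intervals of the libraries overlapped and its counts were low. The LXR genes NR1H2 and NR1H3 and the transporter gene ABCG1 had log2 ratios of -0.03 each, with an interval that included 0. Those 3 ratios turned positive, up to 0.05, with the trend of GC content and length removed.

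To compare genes with each other, the mean CPM of the libraries was divided by the length of the transcript in kb. The median over the 31 genes was 21.3 CPM per kb, against 9.42 CPM per kb over the 11610 genes averaging at least 1 CPM and an annotated transcript. SQLE came first at 1699.6 CPM per kb, 15.1 times the next gene, NPC2, at 112 CPM per kb. FDPS followed at 91.0 CPM per kb and EBP, a sterol isomerase, at 72.8 CPM per kb. IDI1, CYP51A1, FDFT1, PMVK and DHCR7 came next, between 54.7 and 49.0 CPM per kb, too close for their order to be read. At the other end were NPC1 at 4.44, NR1H3 at 1.41 and ABCA1 at 0.799 CPM per kb. By role, the median level was 36.7 CPM per kb for the enzymes of squalene and the sterol ring, 30.3 for the SREBP2 control genes, 28.9 for the upper mevalonate enzymes, 21.3 for sterol transfer and 9.00 for efflux, LXR and storage. The order depends on the length taken: with all exons of a gene joined, SQLE was still first at 1169 CPM per kb and EBP came next at 53.7 CPM per kb, while NPC2 was sixth at 42.3 CPM per kb.

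**Figure D5:**
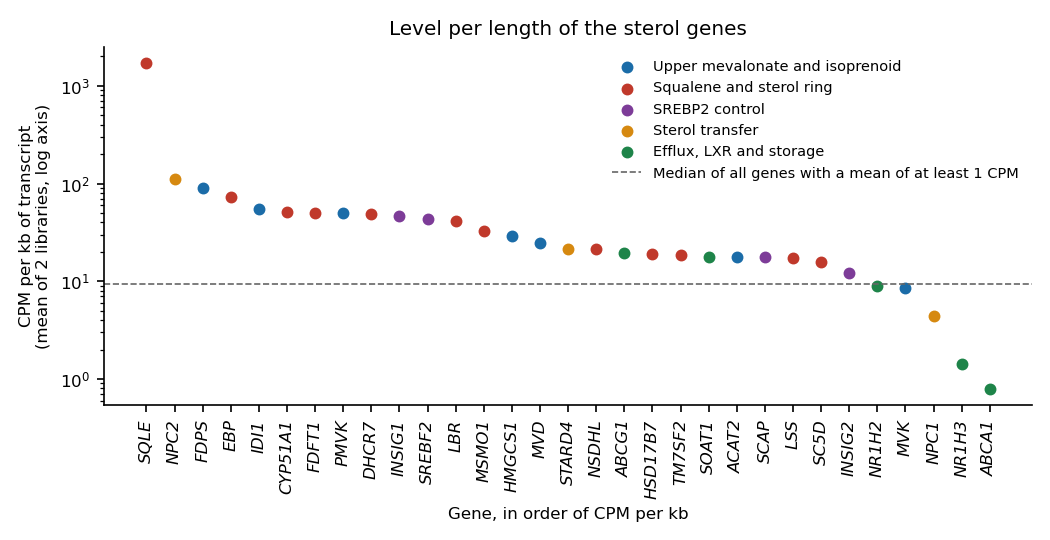
Mean CPM per kb of transcript over the 2 libraries (vertical log axis) for the 31 sterol genes in falling order, coloured by role; the dashed line is the median over genes averaging at least 1 CPM (9.42 CPM per kb). SQLE stands at 1699.6 CPM per kb and ABCA1, the lowest, at 0.799.

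Other genes of the pathway were read as whole lists. Of 11 further genes of the SREBP machinery, such as the proteases and ubiquitin ligases that cut or clear its parts, 6 had a log2 ratio above 0 and 0 reached 1.2 fold, with a median of 0.04. All 11 averaged at least 10 CPM, where 51.9% of all genes were above 0, 3.20% were higher and 4.82% lower by 1.2 fold, so these counts were near the background. Of 8 other SREBP target genes, 6 had a log2 ratio above 0 and 2 were higher by 1.2 fold, against 48.6% and 6.43% of all genes tested, with a median of 0.14. FADS1, a desaturase of polyunsaturated fatty acids, was at 59.3 CPM in low and 71.3 CPM in high glucose, a log2 ratio of 0.27 (0.16 to 0.38). The median of the target list lay above that of the machinery list, a difference that was not tested.

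Another list held 12 genes that use isoprenoids for products other than sterols, all averaging at least 10 CPM. Of these, 8 had a log2 ratio above 0, 2 were higher and 1 was lower by 1.2 fold. The shares of all genes with such a mean were 51.9%, 3.20% and 4.82%, and the median of the list was 0.03. ICMT, which methylates prenylated proteins, was at 228 CPM in low and 283 CPM in high glucose, a log2 ratio of 0.31 (0.25 to 0.36). PDSS1, which makes the side chain of ubiquinone, was at 19.4 and 24.7 CPM, a log2 ratio of 0.35 (0.16 to 0.54). DOLK, the dolichol kinase, was at 20.1 and 16.6 CPM, a log2 ratio of -0.28 (-0.49 to -0.07). This list held differences in both directions.

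Of 10 further genes of LXR response, oxysterol and sterol ester metabolism, 3 averaged at least 1 CPM. MYLIP, an LXR target whose product marks lipoprotein receptors for breakdown, was at 18.7 CPM in low and 13.4 CPM in high glucose, a log2 ratio of -0.49 (-0.72 to -0.26). NCEH1, which hydrolyses cholesterol esters, was at 49.5 and 59.9 CPM, a log2 ratio of 0.28 (0.15 to 0.40). MYLIP thus had the same direction as ABCA1, which is also an LXR target. LPCAT3, a further LXR target, went the other way, at 92.7 and 101 CPM, a log2 ratio of 0.13 (0.04 to 0.22). ABCG1, the other transporter gene of the efflux and LXR group, had a log2 ratio of -0.03 (-0.15 to 0.08). With the trend of GC content and length removed, that of ABCG1 was 0.01. A shared direction of these genes was not tested. Of 9 other genes of sterol uptake and transfer, 6 averaged at least 1 CPM, 4 of these had a log2 ratio above 0, against 48.6% of all genes tested, and 0 reached 1.2 fold, against 6.43% higher and 11.3% lower, which is near those shares for so few genes.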

How the data were processed

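RNA was taken from 1 library of hNCI-H716 cells at each glucose concentration. Per the study's methods and processing notes, the authors trimmed paired-end reads with Trim Galore 0.5.0, aligned them to GRCh38 with STAR 2.6.0 and counted genes with RSEM 1.3.1. The authors deposited CPM for each library, scaled to the library total with a small prior of 0.0121 CPM, the worth of 0.25 counts. The methods name TMM normalization and give the prior in CPM, whereas the deposited values showed no TMM factor and a smaller prior. The authors' log2 CPM, means and comparison columns (the log2 difference and fold of high over low glucose) were not used. Estimated counts were recovered from the steps between low CPM values, in which 73.9% (low) and 74.1% (high) of values under 10 CPM lay within 0.05 of a whole count, and no count model was run. TMM factors (0.998 and 1.002) were computed from them with Python 3.11.15, numpy 2.4.6, pandas 2.3.3 and scipy 1.17.1, and CPM were divided by them with the prior kept. Functions were tested on simulated data. Transcript lengths, exons and neighbours came from GENCODE release 29 on GRCh38, with the longest principal transcript of each gene. The kit does not mark strand. Values in full are given for members averaging at least 10 CPM past 1.2 fold, the SREBP2 control genes, SQLE, and the highest and lowest ratio of each role group, and for genes of other lists that did so past 1.2 fold. ACAT2, MVK, MVD, STARD4, TM7SF2, LBR, the marker genes given with values, the neighbours of SQLE and LPCAT3 were named after their values were seen. The members and lists were chosen with earlier results of these data known. The alternatives tried were other scalings, pseudocounts, filters, fold thresholds, lengths and motif letters, and removal of a GC and length trend.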

Additional observations from a re-analysis of the deposited data

How the results depend on the processing

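No paired analysis was possible because the design has 1 library at each concentration and no test was run. Over the alternatives in scaling, pseudocount and GC and length trend, all 155 recomputed log2 ratios of single members stayed within their counting intervals, although PMVK fell within 1.2 fold with that trend removed, leaving 2 members lower. The median of the members ranged from 0.06 to 0.10, and from 0.05 to 0.09 without SQLE, the lowest values being those that counted ERG28 by its older symbol, an alternative chosen after seeing the data. Another such alternative left out members with named pseudogenes or shared exons, which kept 23 genes, 4 of them higher and 3 lower by 1.2 fold. By construction, a threshold of 1.1 fold gave 10 members higher and 5 lower, and one of 1.5 fold gave 0 higher and 0 lower. Lengths from all exons moved the median level from 21.3 to 17.4 CPM per kb. The shorter motif core was found in 5 member genes, against 1 for the longer form. Depth limits the low genes most: NR1H3, at 3.88 CPM in low glucose, had a log2 ratio interval of -0.50 to 0.44.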

Other observations

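Fatty acid synthesis, which shares its supply of acetyl-CoA with sterol synthesis and is governed mainly by the related factor SREBP1, was read as a comparison list. Of 14 genes, 13 averaged at least 1 CPM, 11 of these had a log2 ratio of high over low glucose above 0, against 48.6% of all genes tested, and the median was 0.12. Of the 13, 3 were higher and 0 were lower by 1.2 fold, against 6.43% and 11.3% of all genes tested. The elongases ELOVL5 and ELOVL6 were among the higher. ELOVL5 was at 129 CPM in low and 159.5 CPM in high glucose, a log2 ratio of 0.31 (0.23 to 0.38). ELOVL6 was at 154 CPM in low and 191 CPM in high glucose, a log2 ratio of 0.31 (0.24 to 0.38). The synthase gene FASN, named here after its value was seen, was at 627 CPM in low and 610.2 CPM in high glucose, a log2 ratio of -0.04 (-0.08 to -0.00). The list's median was close to that of the enzymes of sterol synthesis, and the difference between the lists was not tested.

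ERG28, under its older symbol C14orf1, was at 76.5 CPM in low and 76.8 CPM in high glucose, a log2 ratio of 0.01 (-0.10 to 0.11), and had a mean of 29.1 CPM per kb.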
